A study of Mus musculus with 3 samples.

Results

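The killer lectin-like receptors Klrb1b, Klrb1c, Klrb1f, Klrc1, Klrc2, Klrd1, Klrk1 and Klre1 were examined together with Ncr1 and Zbtb16 in memory phenotype CD4 T cells. The 10 genes were taken by symbol, and Klrg1 was left out of the group. Of them, 9 had at least 1 probe set of their own among the 18193 genes named on the array, with 17 such probe sets in all. Klrb1c was represented only on a probe set shared with Klrb1b, and a second shared probe set read Klrc2 together with Klrc3.

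The cells were sorted from the spleens of BALB/c mice to a stated purity above 99%. The HFD mice were fed a high fat diet, with 60% of its kilocalories as fat, for 10 weeks and gave 2 Affymetrix arrays. The ND mice were fed a normal diet for the same 10 weeks and gave 1 array. The labels give no age, sex or number of mice, do not say whether mice were pooled, and do not say whether natural killer T (NKT) cells were gated out.

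Killer lectin-like receptors are C-type lectin proteins of the natural killer (NK) gene complex that stand on NK cells and on some T cells. They read self or stress ligands on neighbouring cells and pass either an inhibitory or an activating signal. Zbtb16 encodes PLZF, the zinc finger factor that gives NKT cells their innate-like, ready-to-act programme. CD4 T cells of NKT type can carry high CD44 and so can fall within a memory phenotype gate.

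Of the 17 probe sets that read a single member, 14 were lower in both HFD arrays than in ND and 3 were higher in both. Over all 45037 probe sets, 46.5% were lower in both HFD arrays and 32.3% were higher in both. Of the 7 members bright enough to test, Klrb1b, Klrb1f, Zbtb16, Klrk1, Klrd1 and Klrc1 fell and Klre1 did not pass the test. Among the 6, Klrb1b and Klrb1f fell most, and the falls spanned 1.46-fold to 3.17-fold.

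Some facts of the arrays bear on every value that follows. The deposited values are linear intensities scaled to a common trimmed mean per array, and the median probe set read 69.7 and 67.4 on the HFD arrays and 78.3 on the ND array. The ND array stood apart, with a median absolute log2 difference per gene of 0.394 from HFD 1 and 0.453 from HFD 2, against 0.126 between the HFD arrays. H2-Ea, a class II histocompatibility gene that BALB/c mice carry intact and that is silenced by a deletion in C57BL/6 mice, went against the shared strain label. Its brightest probe set read 536 and 602 in HFD against 11.5 in ND, another read 256 and 260 in HFD against 17.0 in ND, and the last read 21.2 and 5.66 in HFD against 17.8 in ND. H2-D1, a class I gene, gave a like contrast on 3 of its 9 probe sets, which read 5907 and 6454 in HFD against 43.8 in ND, 5720 and 6577 in HFD against 8.98 in ND, and 6775 and 7700 in HFD against 82.9 in ND. Its brightest probe set read 26367 and 25218 in HFD and 28067 in ND. Class II and class I histocompatibility genes differ in sequence between mouse haplotypes, and the sequences of killer lectin-like receptors are polymorphic between strains too. The part of strain in the differences described here was not tested. The sex-linked transcripts gave no such contrast: Xist read 20937 and 20274 in HFD and 23034 in ND.

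Differences are given as log2(intensity + 17.7), HFD minus ND, where the added 17.7 is the 25th percentile of all values and keeps dim probe sets from giving extreme ratios. This understates the change of dim genes, and folds are on the same offset scale. A gene was tested when its brightest probe set averaged above 71.5, the median of all values, which 10339 genes did. The test was limma's moderated test with Benjamini-Hochberg adjustment, two-sided, and a gene was called at an adjusted p under 0.05. Of all genes tested, 29.2% were called lower and 20.5% higher in HFD (3015 and 2117 genes), and with the arrays centred on their medians 2097 were called lower and 2757 higher. Over all genes tested the median log2 difference was -0.15. The only replicates are the HFD arrays, so the error comes from them, and the lone ND array is taken to have the same spread. The effect of diet and of any other way in which the ND sample differed cannot be told apart.

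The promoters of the Klrb1 genes share stretches of sequence. In RefSeq promoter windows of assembly GRCm38.p6, which run from 250 bases before to 50 bases after a transcript start, 8 of the 10 members had a window, and Klrd1 and Zbtb16 had none. Klrb1b, Klrc2, Klre1 and Ncr1 had 2 windows each, and every member was read by its first listed window only. The longest run common to any pair of members was a 22-base run in Klrb1b and Klrb1f. A 13-base run stood 5 bases before it in both genes and also occurred in Klrb1c, there after the transcript start. The stretches are shown because these are the members with the largest falls, with both runs in capitals and the rest in lower case, 5′ to 3′ on the gene's strand.
Klrb1b, chr6:128826346-128826425, minus strand: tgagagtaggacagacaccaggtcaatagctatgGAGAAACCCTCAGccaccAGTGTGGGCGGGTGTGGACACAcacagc
Klrb1f, chr6:129045781-129045860, plus strand: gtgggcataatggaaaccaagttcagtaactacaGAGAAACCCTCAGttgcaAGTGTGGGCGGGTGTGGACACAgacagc

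In Klrb1b the 22-base run lay 58 to 37 bases before the transcript start of its window, and in Klrb1f 68 to 47 bases before that of its window. For Klrb1f that start is chr6:129045901, but the RefSeq locus begins further upstream, at 129045837, within the 22-base run. Most of the run in Klrb1f therefore lies inside the annotated locus. Of 27025 genes, each by its first listed window and on both strands, 2 held the 22-base run, Klrb1b and Klrb1f. The 13-base run was held by 4 genes, Klrb1a, Klrb1b, Klrb1c and Klrb1f, all of the same subfamily. Within the 22-base run lies the CACCC box CACACCC on the opposite strand, which 2 of the 8 members' windows and 7.95% of all windows held. The RUNX motif TGTGGT was present in 6 of the 8 windows (Klrb1c, Klrc1, Klrc2, Klrk1, Klre1 and Ncr1) and in 16.8% of all windows. The T-box letters TCACAC were in 2 of the 8 (14.5% of all windows) and the GATA letters AGATAA in 1 of the 8 (11.2%). The E-box CAGCTG (16.3%) and the ETS letters CGGAAG (16.9%) were in 0 of the 8. The shares of all windows are over 32851 windows, with several for some genes. Both strands were searched, the T-box and CACCC letters share CACAC, and a match is a match of letters only.

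Klrb1b encodes NKR-P1B, an inhibitory receptor that recognises the lectin-like protein Clr-b. Its brightest probe set read 84.7 and 92.7 in HFD against 320 in ND. The HFD arrays lay close together and both far below ND. The fall was 3.17-fold (log2 -1.67 ± 0.27 SE, 95% interval -2.25 to -1.08, adjusted p = 2.9e-04), and 0.280% of all genes tested had a difference as low or lower.

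The other Klrb1b probe sets went the same way at lower brightness. They read 84.8 and 54.5 in HFD against 258 in ND, 60.3 and 55.0 in HFD against 223 in ND, 39.6 and 47.6 in HFD against 85.0 in ND, and 15.7 and 17.7 in HFD against 49.5 in ND. All 5 Klrb1b probe sets were lower in both HFD arrays, as were 46.5% of all probe sets. When every probe set was fitted with no filter, 3 of the 5 were called lower (adjusted p = 0.0254, 0.0415 and 0.0493), and the 2 dimmest were not (adjusted p = 0.332 and 0.206).

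Klrb1c encodes NKR-P1C, the activating receptor that carries the NK1.1 epitope in C57BL/6 mice and lacks it in BALB/c mice. The probe set it shares with Klrb1b read 244 and 239 in HFD against 714 in ND. The HFD arrays nearly coincided on it and both lay below ND. In the fit of every probe set it was called lower, 2.82-fold (log2 -1.50, 95% interval -1.92 to -1.07, adjusted p = 0.0090). How much of that signal came from either gene was not tested.

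Klrb1f encodes NKR-P1F, an activating receptor of the same subfamily. Its brightest probe set read 403 and 325 in HFD against 942 in ND, with both HFD values below the single ND value. The fall was 2.53-fold (log2 -1.34 ± 0.17 SE, 95% interval -1.72 to -0.96, adjusted p = 5.2e-05), and 0.929% of all genes tested lay as low or lower. The other Klrb1f probe set read 167 and 136 in HFD against 261 in ND, a smaller difference in the same direction (log2 -0.73, adjusted p = 0.156 in the fit of every probe set).

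**Figure D1:**
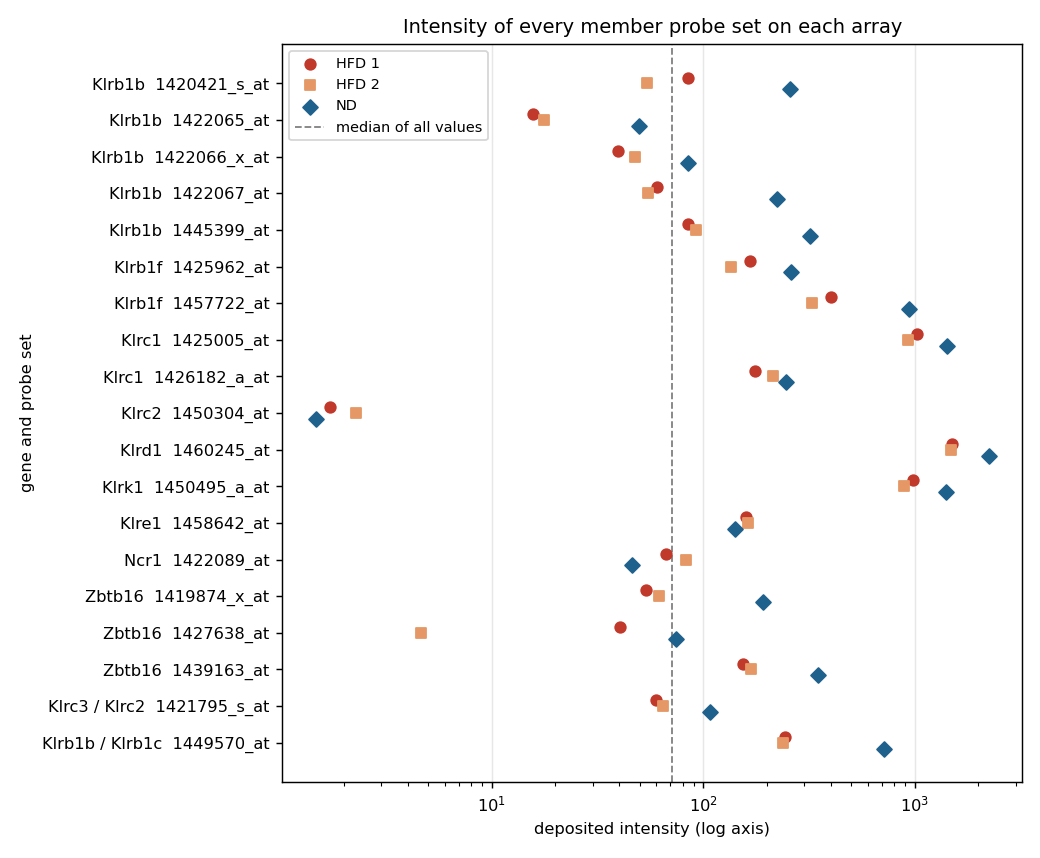
Deposited intensity, on a log axis, of every probe set of the group on the HFD 1, HFD 2 and ND arrays, 1 row per probe set, with the dashed line at 71.5, the median of all values. The ND point lies to the right of both HFD points on 14 of the 17 single-gene probe sets and on both shared ones, and to the left for Klrc2, Klre1 and Ncr1.

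The CD94 and NKG2 receptors fell less. Klrd1 encodes CD94, the common partner chain that pairs with the NKG2A or NKG2C chain and binds the nonclassical class I protein Qa-1. It read 1504 and 1489 in HFD against 2239 in ND. The HFD values differed by 0.014 on the log2 scale, the smallest gap between HFD arrays among the tested members. Klrd1 fell 1.49-fold (log2 -0.58 ± 0.12 SE, 95% interval -0.84 to -0.31, adjusted p = 0.0019).

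Klrc1 encodes NKG2A, the inhibitory partner of CD94. It read 1019 and 929 in HFD against 1424 in ND and fell 1.46-fold (log2 -0.54 ± 0.14 SE, 95% interval -0.84 to -0.24, adjusted p = 0.0056). Its other probe set read 176 and 213 in HFD against 245 in ND, a difference of -0.32 that was not called in the fit of every probe set (adjusted p = 0.489). The activating chain NKG2C is encoded by Klrc2, whose own probe set read 1.73 and 2.28 in HFD and 1.47 in ND, far under the filter on every array. The probe set that reads Klrc2 or Klrc3 gave 59.8 and 64.8 in HFD against 107 in ND (log2 -0.65, adjusted p = 0.360).

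Klrk1 encodes NKG2D, an activating receptor for stress-induced class I-like ligands. It read 978 and 886 in HFD against 1399 in ND, with both HFD values below ND. The fall was 1.49-fold (log2 -0.58 ± 0.14 SE, 95% interval -0.88 to -0.28, adjusted p = 0.0040). Klrd1, Klrk1 and Klrc1 sat well inside the range of all genes, since 20.7%, 20.6% and 22.7% of the genes tested were as low or lower. Set against the median gene they lay 0.42, 0.43 and 0.39 lower on the log2 scale, where Klrb1b lay 1.51 and Klrb1f 1.19 lower.

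Klre1, which pairs with Klri chains in NK cells, read 159 and 163 in HFD against 142 in ND. Both HFD values were slightly above ND, but the difference was within its error (log2 0.17 ± 0.26 SE, 95% interval -0.39 to 0.72, adjusted p = 0.618). Ncr1 encodes NKp46, an immunoglobulin-type activating receptor that marks NK cells and innate lymphoid cells. It read 66.9 and 82.8 in HFD against 46.2 in ND, too dim on average for the filter, and the fit of every probe set did not call it (log2 0.53, 95% interval -0.50 to 1.56, adjusted p = 0.491).

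Zbtb16 fell alongside the Klrb1 receptors. Its brightest probe set read 154 and 168 in HFD against 349 in ND. The HFD arrays lay within 0.115 of each other on the log2 scale. The fall was 2.06-fold (log2 -1.04 ± 0.22 SE, 95% interval -1.52 to -0.56, adjusted p = 0.0020), and 3.69% of all genes tested were as low or lower. A second Zbtb16 probe set read 53.4 and 61.7 in HFD against 192 in ND (log2 -1.48, adjusted p = 0.0617 in the fit of every probe set). The dimmest read 40.3 and 4.65 in HFD against 74.1 in ND, where the HFD arrays themselves differed widely (log2 -1.35, adjusted p = 0.279). All 3 Zbtb16 probe sets were lower in both HFD arrays, as were 46.5% of all probe sets, and in the fit of every probe set the brightest was called (adjusted p = 0.0464) and the other 2 were not.

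By their brightest probe sets, all 7 tested members were above the filter on each of the 3 arrays, so none was tested through ND alone. Of them 6 were called lower, against 29.2% of all genes tested, and their median log2 difference was -0.58 against -0.15 for all genes. By a rule of size without a test, Klrb1b and Klrb1f were lower than ND by 2-fold or more in each HFD array, as were 2.6% of all genes tested. Zbtb16 missed that rule because HFD 2 lay 0.98 below ND on the log2 scale, where HFD 1 lay 1.10 below. Over the 17 single-gene probe sets fitted with no filter, 8 were called lower, against 5.92% of all probe sets, and the 3 that were higher were not called (adjusted p = 0.491 to 0.942). The median difference of the 17 was -0.75, against -0.09 over every probe set. The 8 called came from 6 members, so they are not 8 separate genes. Of the 17, 12 averaged above 71.5, the median of all values. Among these 12, a Klrb1b probe set (60.3 and 55.0 in HFD against 223 in ND) did so through ND alone. So did a Zbtb16 probe set (53.4 and 61.7 in HFD against 192 in ND). Another Klrb1b probe set was below 71.5 on HFD 2 (84.8 and 54.5 in HFD against 258 in ND).

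**Figure D2:**
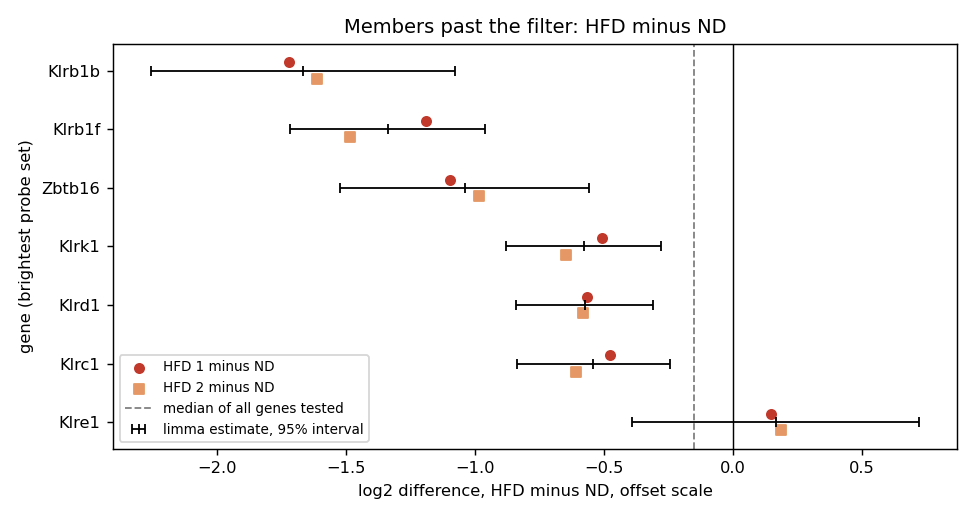
Log2 difference, HFD minus ND, of the brightest probe set of each of the 7 tested members, with the limma estimate and its 95% interval and the separate differences of HFD 1 and HFD 2 from ND. The intervals of Klrb1b, Klrb1f, Zbtb16, Klrk1, Klrd1 and Klrc1 lie below 0 and below the dashed median of all genes (-0.15), and that of Klre1 spans 0.

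Genes that work with these receptors were taken as 7 lists of ligands, adaptors, relatives and NKT cell genes. Of their members other than the group itself, 88 were tested, 50 of them (56.8%) called lower and 8 (9.09%) higher, against 29.2% and 20.5% of all genes tested. With the arrays centred on their medians 38 were called lower and 12 higher, against 2097 and 2757 of all genes tested. From each list up to 5 called genes are named, those with the largest difference in the HFD array nearer to ND. Myb and the genes given as not called or under the filter were named in addition, after their values were seen.

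Among the adaptors and signalling proteins, 11 of 19 fell and the other 8 were not called, with a median of -0.51 against -0.15 for all genes. Tyrobp, which encodes DAP12, the adaptor of several activating receptors, read 798 and 1049 in HFD against 2217 in ND (log2 -1.26 ± 0.16 SE, adjusted p = 4.5e-05). Hcst, which encodes DAP10, the adaptor through which NKG2D signals, read 2991 and 2147 in HFD against 5422 in ND (log2 -1.09, adjusted p = 1.2e-04). The signalling chain gene Fcer1g, the PI3-kinase regulatory subunit gene Pik3r1 and the Src family kinase gene Fyn also fell (log2 -1.13, -0.99 and -0.87). Tyrobp and Fcer1g are also made by myeloid cells, whose markers are given below.

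Of the ligand genes 4 were tested. Clec2i, which encodes a Clr protein recognised by NKR-P1F, fell by 0.87 on the log2 scale (735 and 560 in HFD against 1188 in ND, adjusted p = 0.0011). Clec2d, which encodes Clr-b, the ligand of NKR-P1B, read 5801 and 3819 in HFD and 4317 in ND, so that the HFD values lay on either side of ND (log2 0.12, adjusted p = 0.585). By their brightest probe sets the class I genes H2-K1 and H2-D1 differed by -0.13 and -0.12 on the log2 scale and were not called (adjusted p = 0.102 and 0.153), while the H2-D1 probe sets disagreed as given above. Some dimmer H2-D1 probe sets were called lower in the fit of every probe set (log2 -0.53, -0.78 and -0.40, adjusted p = 0.0261, 0.0146 and 0.0456). Of the 4 H2-K1 probe sets, 2 dimmer ones were called lower in the fit of every probe set (log2 -0.47 and -0.88, adjusted p = 0.0289 and 0.0139). The NKG2D ligand genes Ulbp1 and H60c were under the filter, at 41.9 and 58.6 in HFD against 15.1 in ND for Ulbp1 and at 37.9 and 48.0 in HFD against 71.0 in ND for H60c.

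Of the other lectins of the NK gene complex, 3 of 5 tested fell and 1 rose. Klrg1, an inhibitory receptor of late effector cells, read 810 and 688 in HFD against 1722 in ND (log2 -1.19, adjusted p = 3.5e-05). Clec7a, which encodes the fungal receptor dectin-1 of myeloid cells, fell by 0.84 (adjusted p = 0.0473), and Clec2i is given above. Cd69, an early activation marker, rose by 0.50 (7392 and 8664 in HFD against 5668 in ND, adjusted p = 0.0019). Klrb1a, the remaining Klrb1 gene with the shared 13-base run, was under the filter at 23.8 and 45.0 in HFD against 84.1 in ND. Of 7 Ly49 genes with a probe set of their own, 6 were below 71.5 on every array. The other, Klra17, read 228 and 221 in HFD against 508 in ND (log2 -1.12, adjusted p = 4.1e-04), and its product Ly49Q is known from plasmacytoid dendritic cells. A probe set shared by the Ly49 genes Klra3 and Klra9 read 274 and 289 in HFD against 423 in ND. Another, shared by Klra1 and Klra22, read 2.33 and 2.13 in HFD and 1.67 in ND. As shared probe sets they were not in the test of genes.

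Among other NK-associated receptors of T cells, 7 of 12 fell and 1 rose (median -0.55). Cd160, a receptor of NK and T cells, read 362 and 293 in HFD against 1679 in ND (log2 -2.30, adjusted p = 3.7e-07). Cd96, which like CD226 binds nectin-family ligands, read 2206 and 1882 in HFD against 4012 in ND (log2 -0.97, adjusted p = 5.0e-05). Cd7 and Il2rb, the receptor chain shared by interleukins that sustain NK and NKT cells, fell by 0.92 and 0.81. Crtam, a receptor induced on activated T and NK cells, rose by 0.93 (647 and 686 in HFD against 341 in ND, adjusted p = 3.8e-04).

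The list around PLZF and NKT cell development had 16 of 26 genes called lower and 1 higher (median -0.49). Cd1d1, the molecule that presents lipids to NKT cells, fell by 1.12 (1088 and 816 in HFD against 2076 in ND, adjusted p = 1.3e-04). The transcription factor genes Gata3, Runx1 and Tox fell by 1.03, 1.13 and 1.01. Fyn, which relays the signals of NKT cell selection, is given above. Myb, a factor of immature thymocytes and the 1 gene of the list called higher, rose by 0.94 (adjusted p = 3.2e-04). Egr2, which acts upstream of Zbtb16 in NKT cell development, was not called (1856 and 1825 in HFD against 2254 in ND, log2 -0.29, adjusted p = 0.0606). Its other probe set read 1559 and 1251 in HFD against 2274 in ND and was called lower in the fit of every probe set (log2 -0.70, adjusted p = 0.0484), where the brightest was not (adjusted p = 0.124).

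The effector and homing list split: 14 of 25 fell and 5 rose (median -0.39). Il17rb, a receptor of some NKT cells, read 116.3 and 116.0 in HFD against 338 in ND (log2 -1.41, adjusted p = 4.8e-04). The chemokine receptor gene Cxcr6 read 4545 and 3568 in HFD against 10176 in ND (log2 -1.33, adjusted p = 4.0e-06). The chemokine genes Ccl3 and Ccl4 rose by 2.88 and 2.60, and the granule protease gene Gzmb rose by 2.29 (1671 and 1954 in HFD against 355 in ND, adjusted p = 1.1e-07).

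**Figure D3:**
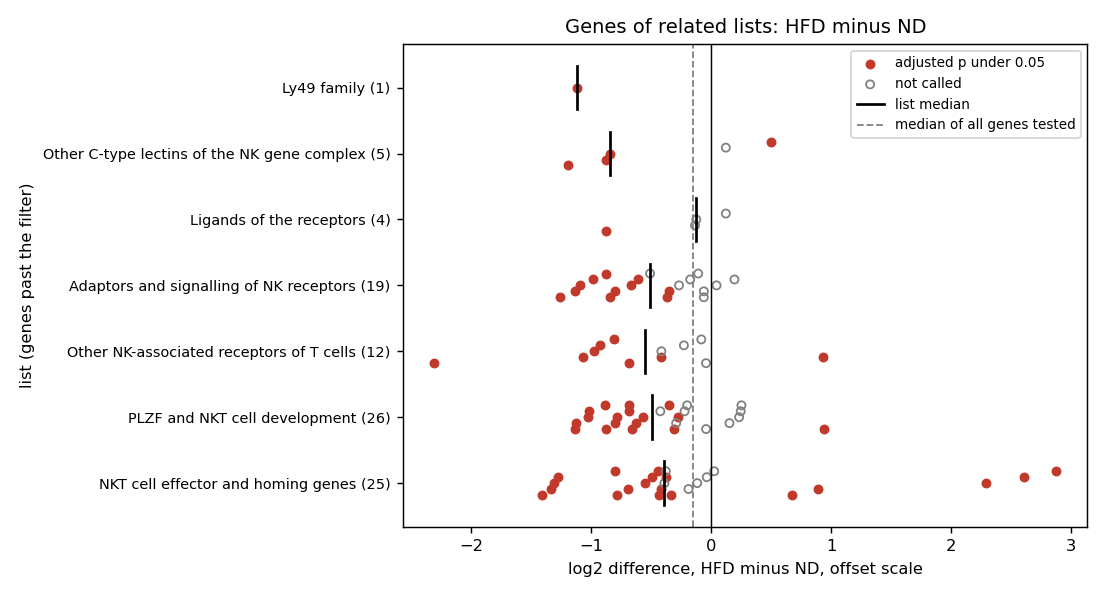
Log2 difference, HFD minus ND, of each tested gene in 7 lists related to the receptors, with filled points for genes called at an adjusted p under 0.05, a black bar at each list's median and the number of genes tested in brackets. Most called points lie left of the dashed median of all genes (-0.15), while Ccl3, Ccl4 and Gzmb lie above 2.

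Markers of other cells that a sort could hold moved in both directions. The 14 NK cell markers on the array summed to 7523 and 7747 in HFD against 9997 in ND. Of the 8 tested 3 fell and 2 rose, where 29.2% of all genes tested were called lower and 20.5% higher. Among these markers Eomes, an NK cell factor, was higher in HFD (471 and 558 against 367 in ND, log2 0.46, adjusted p = 0.0401). Its other probe set read 482 and 444 in HFD against 161 in ND. The fit of every probe set called this one higher (log2 1.43, adjusted p = 0.0116). It did not call the brightest (adjusted p = 0.165). The granule protease gene Gzma was also higher (435 and 420 in HFD against 222 in ND, log2 0.89, adjusted p = 0.0013). Itga2, S1pr5 and Klra8 were below 71.5 on every array. Car2 was called lower (330 and 267 in HFD against 550 in ND, log2 -0.85, adjusted p = 0.0025). So was Nkg7 (3428 and 3025 in HFD against 4353 in ND, log2 -0.43, adjusted p = 0.0072), as was Tyrobp, given above. Irf8 read 1584 and 1825 in HFD and 1618 in ND and was not called. Fcgr3, under the filter, read 7.73 and 30.9 in HFD against 76.1 in ND. The CD8 genes Cd8a and Cd8b1 summed to 581 and 715 in HFD against 449 in ND, although 1 of the 5 Cd8a probe sets was lower in HFD (129.8 and 129.7 against 161 in ND). The 3 markers of gamma delta T cells summed to 166 and 217 in HFD against 209 in ND.

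Of 10 tested myeloid and dendritic cell markers, 9 were called lower in HFD, against 29.2% of all genes tested, and the 13 on the array summed to 4808 and 5681 in HFD against 10293 in ND. Among their defining genes, Lyz2 was at 267 and 280 in HFD against 594 in ND, and the plasmacytoid dendritic cell gene Siglech at 338 and 407 in HFD against 956 in ND. Itgam and Cd14 were below 71.5 on every array. The 9 B cell markers summed to 2914 and 3120 in HFD against 1814 in ND, a direction carried by Ms4a1 (1612 and 1837 in HFD against 56.8 in ND). Without Ms4a1, a sum added after the values were seen, the other 8 came to 1302 and 1282 in HFD against 1758 in ND. Of the 5 tested, Ms4a1 was called higher, Cd22 was called lower (605 and 504 in HFD against 939 in ND, log2 -0.75, adjusted p = 0.0020) and 3 were not called. Cd79a, under the filter, read 51.2 and 49.4 in HFD against 5.74 in ND. Pax5 was also under it, and its 2 probe sets disagreed. The brighter read 27.0 and 6.86 in HFD against 65.1 in ND, and the other 32.1 and 28.3 in HFD against 3.25 in ND. Ebf1, under the filter too, read 14.3 and 43.5 in HFD against 1.73 in ND on its brightest probe set. The 11 markers of CD4 T cells summed to 83686 and 79097 in HFD against 100798 in ND, with 7 of 9 tested called lower, against 29.2% of all genes tested, among them Cd3e (log2 -0.74) and Cd44 (log2 -0.78). Cd4 read 609 and 377 in HFD against 911 in ND. The part of these cells in the differences of the receptors and of Zbtb16 was not tested, and in a bulk sample fewer cells of a type and less RNA per cell cannot be told apart.

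**Figure D4:**
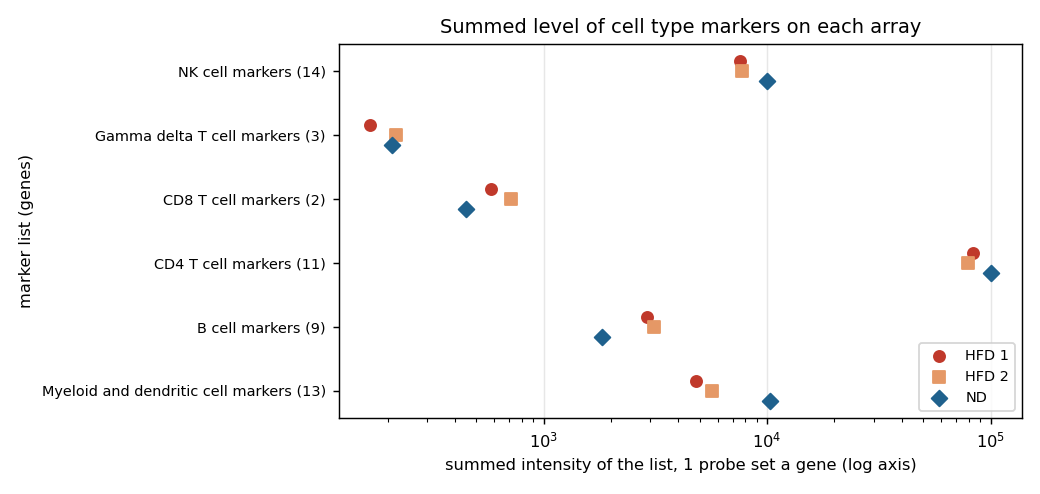
Summed intensity on a log axis of 6 cell type marker lists, each gene by its brightest probe set, on the HFD 1, HFD 2 and ND arrays, with the number of genes in brackets. Myeloid and dendritic cell, CD4 T cell and NK cell sums are lower in both HFD arrays, B cell and CD8 T cell sums are higher in both (the B cell sum through Ms4a1 alone, since the other 8 genes sum to 1302 and 1282 in HFD against 1758 in ND), and the gamma delta T cell sums of HFD lie on either side of ND.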

How the data were processed

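The deposited table holds a linear intensity per probe set for each of 3 arrays, 2 HFD and 1 ND, made by the authors with GCOS, Affymetrix's array software, per the submitters' processing notes. Not given in the sources used here: its algorithm, version and background correction. No detection calls were used, and whether a dim value is above background is unknown. Precision is limited by the number of arrays. Nothing in the labels tells if separate mice gave the HFD arrays. The p-values therefore describe the spread of these arrays alone, which may be technical.

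Controls (64) were set apart. Of the other 45037 probe sets, 34945 had 1 gene symbol in GEO's platform annotation, 932 several and 9160 none. Symbols were checked through Entrez identifiers against RefSeq (GRCm38.p6): 34741 matched and 0 changed. Genes were named only from probe sets with 1 symbol, except the shared receptor probe sets, given as shared.

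Values were transformed as log2(intensity + 17.7), and a gene was tested through its brightest probe set where this averaged above 71.5. The difference, HFD minus ND, was fitted with limma 3.58.1 (lmFit, eBayes with a trend) in R 4.3.3, with 1 residual degree of freedom, moderated with 11.7 prior degrees of freedom. The fit was also run on simulated data in which all 3 arrays had the same spread, which cannot check the spread of the ND array. A second fit took every probe set with no filter. Promoter sequences came from RefSeq. The members and gene lists were chosen with earlier results of these data known. Named genes were all members and, from each related list, up to 5 called genes ranked by the smaller of the differences of the HFD arrays from ND, with the marker lists and checks of the labels; other genes named, and the promoter motifs, were chosen after values or sequences were seen. Figures used matplotlib 3.10.9, and tables pandas 2.3.3, in Python 3.11.15.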

Additional observations from a re-analysis of the deposited data

How the results depend on the processing

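The alternatives changed the normalization (quantile, or centred arrays), the offset, how probe sets were filtered or merged, limma's variance model and the thresholds, or left out each HFD array. Klrb1b, Klrb1f, Klrc1, Klrd1, Klrk1 and Zbtb16 stayed called lower under each alternative with a test in which they were measured (10 or 11 each), the highest adjusted p being 0.0464, for Klrc1 and for Zbtb16 with probe sets kept apart and no filter. Klre1 stayed above 0 and uncalled in 10. Under the alternatives that kept both HFD arrays, Klrb1b ranged from -1.84 to -1.29, Klrb1f from -1.38 to -1.03, Zbtb16 from -1.26 to -0.86 and the other called members from -0.59 to -0.39 on the log2 scale. The -1.26 of Zbtb16 came from the mean over probe sets, which took in a probe set above the filter through ND alone. With 1 HFD array left out, Klrb1b spanned -1.72 to -1.61, Klrb1f -1.49 to -1.19, Zbtb16 -1.10 to -0.98, Klrk1 -0.65 to -0.51, Klrc1 -0.61 to -0.48 and Klrd1 -0.58 to -0.57. With the filter at the 75th percentile, Klrb1b, Zbtb16 and Klre1 were not measured, and 1 member was lower by 2-fold or more in each HFD array in place of 2. The number of all genes called lower was 1922 with no filter and 1974 at an adjusted p under 0.01, in place of 3015. Leaving out an HFD array left 1 array a group and no test, and the members lower by 2-fold or more then numbered 2 or 3, the additional one being Zbtb16, on HFD 1 alone. No paired analysis was possible because the ND group has 1 array, whose label carries no replicate number.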
